A study of Mus musculus with 8 samples.

Results

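The cytosolic ribosomal proteins are the protein part of the ribosome that translates nuclear-encoded messenger RNA. Their probes were taken by name: Rpl, Rps or Rplp followed directly by a digit, without the ribosomal S6 kinases (Rps6k). Of 55681 probes and 21997 named genes on the array, 198 probes and 99 names matched. The names comprised 43 genes of the large subunit (105 probes), 29 of the small subunit (61 probes) and 3 of the P-stalk (5 probes), together 75 core genes. The other names were 8 paralogs (9 probes), 15 pseudogene names (17 probes) and Rps19bp1 (1 probe), a protein that binds Rps19 and is no ribosomal protein.

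A ribosome consists of a small subunit, which reads the message, and a large subunit, which joins amino acids. The P-stalk of the large subunit recruits the elongation factors. Ribosomal protein messages of mammals open with an uninterrupted run of pyrimidines that starts with a C at the cap, called the 5′ TOP motif, through which mTOR signalling and the RNA-binding protein Larp1 control their translation. Satellite cells are the stem cells of skeletal muscle, and their return from quiescence to growth is known to come with more ribosome production.

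The basal group was satellite cells sorted from uninjured muscle of C57BL/6 mice, and the injured group was the same kind of cells sorted from muscle 3 days after cardiotoxin, a venom toxin that kills muscle fibres. Each group had 4 arrays, each of 1 labelled biological replicate. All mice were labelled male and 3 months old, and no allele or other treatment is given for either group. The sort kept integrin alpha 7 and removed cells with CD31, CD45, CD11b or Sca1, and the series text sets the groups against each other as resting and responding stem cells. Whether a replicate was 1 animal or a pool is not stated.

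Between 50.1% and 56.7% of the 59305 non-control spots per array were marked as above background. Values are log2 processed intensity minus the 75th percentile of the array, so a level is relative to that array, and levels of different probes cannot be compared. All basal arrays lay on 1 slide and all injured arrays on another, so injury and slide cannot be told apart. With 4 arrays a group, their number sets the precision. Markers of the labelled cell type were present and many were lower after injury. Of 13 satellite cell markers tested, 8 were lower and 2, Myod1 and Itga7, were higher, and their summed linear signal was 244 to 299 on basal and 133 to 168 on injured arrays. Pax7, the transcription factor of satellite cells, ranged over 4.38 to 5.40 on basal and 1.81 to 1.99 on injured arrays, and Myf5, an early myogenic factor, was on no array above background. The summed signal of 9 fibro-adipogenic markers was 56.4 to 85.6 on basal and 7.05 to 9.77 on injured arrays, with 4 of 5 tested lower and Pdgfra and Cd55 never above background. That of 10 endothelial markers was 23.2 to 45.1 against 9.88 to 12.1, with 2 of 8 tested lower and 1 higher. Of 10 pericyte and smooth muscle markers 7 were lower, among them Rgs5 and Pdgfrb, which were above background on no injured array; the sum of 1220 to 1400 against 936 to 1070 was mostly Mcam. The immune sum of 474 to 542 against 493 to 585 was mostly Itgam, and 1 of 6 immune markers tested was higher and 1 lower. Of 6 myofibre markers tested, 3 were higher (Tnnc2, Tnnt3 and Atp2a1) and 2 lower (Mb and Pvalb), and the sums of 43 to 52.1 against 97.1 to 141 were mostly Atp2a1. The sum of 5 red cell markers was 5.55 to 55.5 on basal and 3.53 to 5.33 on injured arrays. That of 5 Schwann markers was 3.16 to 31.7 on basal and 1.83 to 2.17 on injured arrays. The part of these other cell types in the ribosomal protein values was not tested. Xist, an RNA of female cells, stood at 6.37 to 6.57 on injured arrays 2 to 4 and at 1.72 on injured 1, although all animals were labelled male. On basal arrays 1 to 4 it stood at 3.85, 2.15, -1.12 and -4.97. On injured 1, whose Xist was low, the median deviation of the core genes, described below, was 0.26, against 0.08 to 0.25 on injured 2 to 4. On basal 1, whose Xist was the highest of the basal arrays, it was 0.08, against -0.30 to -0.27 on basal 2 to 4. Whether Xist and the ribosomal protein values are linked was not tested.

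Of the 75 core genes, 39 were higher on injured arrays at an adjusted p under 0.05 (limma, adjusted over 13768 genes tested), none was lower and 36 were not called. The 39 are 52%, where 35.3% of all genes tested were higher and 60.1% were called in either direction. At an unadjusted p under 0.05 from the same test, 45 were higher and 2, Rpl28 and Rpl17, lower, together 62.7%, close to the 64.5% of all genes. Their median log2 difference, injured minus basal, was 0.43, with quartiles of 0.19 and 0.62 and ends of -0.51 and 1.47. The median of all genes tested was 0.17, and 58 core genes lay above it. All 4 injured arrays exceeded all basal arrays for 35 core genes, and were all below them for 1, Rpl17, where 33.9% and 23.3% of all genes did so (57.2% in either direction). In bulk samples, fewer cells of a type and less RNA per cell cannot be told apart. In size, 5 core genes rose by at least 1 on the log2 scale. With quantile normalization in place of the 75th percentile, 22 core genes (29.3%) were higher and 6 lower, where 33.7% of all genes were higher. With normexp background correction before it, 30 (40.0%) were higher and 12 lower, where 33.5% of all genes were higher, so whether the core share lay above that of all genes, and whether any core gene was lower, depended on the scaling. In the authors' deposited table, 2 core genes (2.7%) were higher, Rps2 among them, where 24.0% of all genes were higher. Of all called genes, 58.8% were higher here and 81% in that table, where the median of all genes was 0.47 and that of the core genes 0.38.

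**Figure D1:**
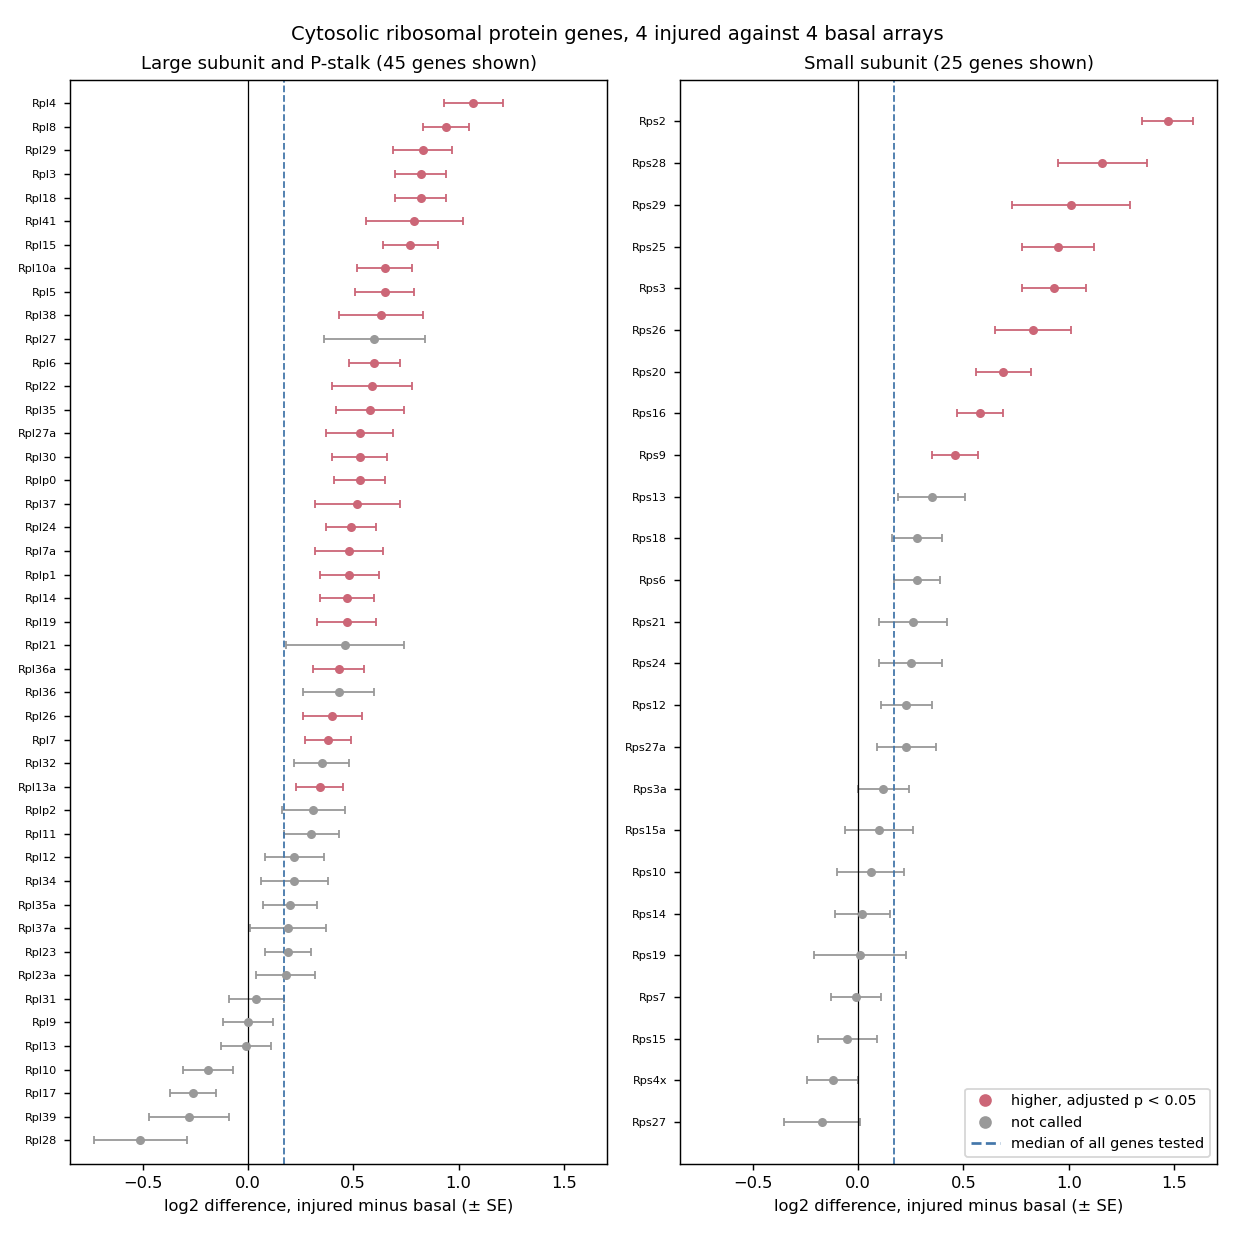
Log2 difference between the injured and basal group (horizontal axis, points with moderated standard errors, 4 arrays per group) for core ribosomal protein genes, large subunit and P-stalk on the left and small subunit on the right, with red for genes called higher and grey for genes not called. Most points lie right of 0, from Rpl28 at -0.51 to Rps2 at 1.47, and the dashed line marks the median of all genes tested, 0.17.

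The probes behind the genes that rose most, behind the lowest gene and behind the Rps27 family are 60 bases long. They are shown in lower case, 5′ to 3′, as the array files give them, with mm9 positions, because the sizes below rest on these stretches.
Rps2 probe, + strand, chr17:24857583-24857642: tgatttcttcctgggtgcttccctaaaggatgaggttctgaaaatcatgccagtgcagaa
Rps28 probe, - strand, chr17:33960058-33960197: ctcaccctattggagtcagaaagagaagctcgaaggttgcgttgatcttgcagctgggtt
Rpl28 probe, + strand, chr7:4744951-4745010: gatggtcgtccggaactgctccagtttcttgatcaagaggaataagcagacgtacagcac
Rps27 probe, - strand, chr9:114891672-114891731: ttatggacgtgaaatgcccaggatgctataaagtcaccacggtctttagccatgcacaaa
Rps27l probe, + strand, chr9:66795486-66797176: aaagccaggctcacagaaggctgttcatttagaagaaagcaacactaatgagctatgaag
The array positions of the Rps28 and Rps27l probes span more genome than the 60 bases of the probe. The 4 Rps27 probes are all placed on chromosome 9 by the array, whereas RefSeq has the start of Rps27 on chromosome 3. In all, 8 of 122 core probes with a RefSeq start to compare lay on another chromosome than their gene, and for Rps27, Rpl13 and Rps4x that was the probe used for the gene. Ribosomal protein genes have many near-identical processed copies, and signal of such copies cannot be told apart from that of the gene for these 3. Only the chromosome was compared. Core genes without a RefSeq start were left out, Rps29 among them, whose 3 probes the array places on chromosome 2.

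In the small subunit, 12 of 29 genes (41.4%) were higher, where 35.3% of all genes tested were higher. The 29 genes had a median log2 difference of 0.28 and a middle range of 0.07 to 0.83. Rps2, a protein of the mRNA entry channel, rose most of all core genes. It stood at 5.60, 5.55, 5.50 and 5.83 on basal arrays 1 to 4 and at 7.14, 7.20, 7.0 and 7.01 on injured arrays 1 to 4. The injured arrays formed a tight band above every basal array, and basal 1 was among the other basal arrays. The log2 difference was 1.47 ± 0.12 (SE, n = 4 per group; adjusted p = 3.9e-05), a fold of 2.77. The second Rps2 probe gave 1.73 ± 0.13. The array places it elsewhere on chromosome 17, at chr17:42864841-42864900 (mm9), and whether it reads a copy of the gene was not tested. Rps2 passed the threshold under all 21 alternative settings, with values of 0.97 to 1.60.

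Rps28, which lies near the mRNA exit, stood at 5.61, 4.93, 4.67 and 4.71 on basal and at 6.27, 6.23, 6.11 and 5.97 on injured arrays. Basal 1 lay well above the other basal arrays, though still below the injured ones. The difference was 1.16 ± 0.21 (adjusted p = 0.00175).

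Rps29, a zinc-binding protein of the head, rose by 1.01 ± 0.28 (adjusted p = 0.0123) and Rps25, which takes part in initiation at internal ribosome entry sites, by 0.95 ± 0.17 (adjusted p = 0.00144). A second Rps25 probe gave -0.55 ± 0.21 (adjusted p = 0.0526), and the mean of both probes gave 0.20, which was not called. Rps3, Rps26, Rps20, Rps16 and Rps9 rose by 0.46 to 0.93. Rps3 helps to form the mRNA entry channel with Rps2, and Rps26 contacts the message near the exit. For all 12 risers of the small subunit the injured arrays lay above the basal ones without overlap.

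The other 17 small subunit genes were not called. Rps13, Rps18, Rps6, Rps21, Rps24, Rps12 and Rps27a had log2 differences of 0.23 to 0.35. Rps6 is the classic substrate of the S6 kinases, and its values of 7.72, 7.45, 7.68 and 7.60 on basal and 7.88, 7.96, 7.90 and 7.83 on injured arrays did not overlap, with a difference of 0.28 ± 0.11 (adjusted p = 0.0598). Rps27a is made as a fusion with ubiquitin. Rps3a, Rps15a, Rps10, Rps14, Rps19, Rps7, Rps15 and Rps4x lay between -0.12 and 0.12. Rps19 and Rps14, whose loss is known to impair red cell formation, had values of 0.01 and 0.02. Rps27 was the lowest gene of the subunit, at -0.17 ± 0.18.

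In the large subunit, 25 of 43 genes (58.1%) were higher, where 35.3% of all genes tested were higher. The 43 genes had a median log2 difference of 0.46 and a middle range of 0.21 to 0.60. Without injured replicate 1 the count of higher genes was 15, and without basal replicate 1 it was 31. The shares of all genes were then 31.0% and 36.0%. Rpl4, which lines the peptide exit tunnel, rose most. It stood at 5.82, 5.71, 5.90 and 6.08 on basal and at 7.0, 7.17, 6.76 and 6.86 on injured arrays. The groups did not overlap, and basal 1 was not the highest basal array. The difference was 1.07 ± 0.14 (adjusted p = 3.1e-04), a fold of 2.1.

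Rpl8, next to the peptidyl transferase centre, rose by 0.94 ± 0.11 (adjusted p = 1.9e-04) and Rpl29 by 0.83 ± 0.14 (adjusted p = 0.00121). Rpl3, also at the peptidyl transferase centre, rose by 0.82 ± 0.12 (adjusted p = 4.6e-04) and Rpl18 by 0.82 ± 0.12 (adjusted p = 5.0e-04). Basal arrays spanned 5.33 to 5.54 for Rpl3 and injured arrays 6.14 to 6.37, so the gap between the groups was wider than either group. Rpl41, the smallest ribosomal protein, and Rpl15 rose by 0.79 and 0.77. Rpl5, which carries the 5S ribosomal RNA into the large subunit together with Rpl11, rose by 0.65 ± 0.14 (adjusted p = 0.00422), and the brightest Rpl11 probe had a difference of 0.30 ± 0.13 (adjusted p = 0.0738). The other 2 Rpl11 probes rose by 1.23 ± 0.17 and 0.98 ± 0.15. Rpl38, known for its part in body patterning in mice, rose by 0.63 ± 0.20 (adjusted p = 0.0214). Further risers were Rpl10a, Rpl6, Rpl22, Rpl35, Rpl27a, Rpl30, Rpl37, Rpl24, Rpl7a, Rpl14, Rpl19, Rpl36a, Rpl26, Rpl7 and Rpl13a, at 0.34 to 0.65.

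The 18 large subunit genes that were not called fell into a group with positive and a group with near-zero or negative differences. Rpl27, Rpl21, Rpl36, Rpl32, Rpl11, Rpl12, Rpl34, Rpl35a, Rpl37a, Rpl23 and Rpl23a had differences of 0.18 to 0.60. The Rpl21 probe was above background on 3 of 4 basal arrays and on all injured ones, and the other 74 core probes were above background on all 8 arrays. Rpl31, Rpl9 and Rpl13 lay between -0.01 and 0.04. The Rpl13 probe used is placed on chromosome 4, and another probe placed there gave -0.17 ± 0.12. The Rpl13 probes on chromosome 8, where RefSeq has the gene, gave 0.48 ± 0.12 (adjusted p = 0.0103, called higher) and 0.25 ± 0.12 (not called).

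Rpl10, Rpl17, Rpl39 and Rpl28 had the lowest values, at -0.19, -0.26, -0.28 and -0.51. Rpl10 joins the large subunit in its last maturation steps, and Rpl17 and Rpl39 line the exit tunnel as Rpl4 does. Rpl17 stood at 6.96, 7.09, 7.17 and 7.18 on basal and at 6.87, 6.83, 6.90 and 6.74 on injured arrays. All injured arrays were below all basal ones, and the difference of -0.26 ± 0.11 did not pass the threshold (adjusted p = 0.0711). It was called lower without basal replicate 1, at -0.31.

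Rpl28 stood at 6.58, 5.86, 5.68 and 5.66 on basal and at 5.34, 5.33, 5.71 and 5.38 on injured arrays. Basal 1 was far above the rest and injured 3 lay within the basal range, so the groups overlapped. The difference was -0.51 ± 0.22 (adjusted p = 0.076), with a 95% interval of -1.01 to 0.00. Under quantile normalization Rpl28 was called lower with Rpl39, Rpl17, Rpl13, Rps27 and Rps4x. In the P-stalk, Rplp0, which anchors the stalk on the ribosome, rose by 0.53 ± 0.12 (adjusted p = 0.00401) and Rplp1 by 0.48 ± 0.14 (adjusted p = 0.0165). Rplp2, the partner of Rplp1, had a difference of 0.31 ± 0.15 (adjusted p = 0.112).

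A gene that was not called may still differ. Of the 36 core genes not called, 17 had a 95% interval that reached a log2 difference of 0.5 or more, and 19 had an upper bound under 0.5. For 17 of the 36, all injured arrays exceeded basal arrays 2 to 4, and only basal 1 could reach their range. Basal 1 was picked out by its values for these same genes, and the share of all genes meeting this rule was not computed. The count therefore does not show that these 17 rose.

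Basal 1 stood apart from the other basal arrays. The median deviation of the core genes from their 8-array mean was 0.08 on basal 1 and -0.27, -0.28 and -0.30 on basal 2 to 4. On injured arrays 1 to 4 it was 0.26, 0.23, 0.25 and 0.08. Basal 1 thus lay as high as injured 4 and above the other basal arrays, and injured 1 lay with injured 2 and 3. Both subunits showed this: basal 1 was at 0.06 for the large and 0.11 for the small subunit, and basal 2 to 4 were at -0.32 to -0.19. Basal 1 also lay above the other basal arrays in some comparison lists. For mitochondrial ribosomal proteins it was at -0.18 and basal 2 to 4 at -1.04 to -0.66. For ribosome biogenesis it was at -0.32 and basal 2 to 4 at -1.24 to -0.70. For elongation and release genes it did not, as basal 1 was at -0.42 and basal 4 at -0.39. Basal 1 was the highest basal array for 60 of the 75 core genes, against 32.5% of all genes, and it exceeded the mean of the injured arrays for 26. Injured 4 was the lowest injured array for 65. The SD over arrays was larger in the basal than in the injured group for 62 core genes, with medians of 0.18 and 0.11. For the counts of 26, 65 and 62 the share of all genes was not computed. Over 10768 genes above background on all arrays, basal arrays correlated at 0.955 to 0.978 and injured arrays at 0.990 to 0.996. A larger basal spread was thus not particular to the core genes. Without basal 1, 51 core genes (68.0%) were higher, including all 39, where 36.0% of all genes were higher. The 12 genes that joined the 39 included Rpl27, Rpl36, Rps13 and Rpl32. As basal 1 was the highest basal array for most core genes, leaving it out raises their differences. With any other array left out the count was 29 to 40. For 6 of the 39 risers the groups overlapped, and in each basal 1 was the only basal array within the injured range. On basal 1 the Schwann marker sum was the highest of all arrays at 31.7 and the endothelial sum at 45.1, and their part in its ribosomal protein values was not tested.

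**Figure D2:**
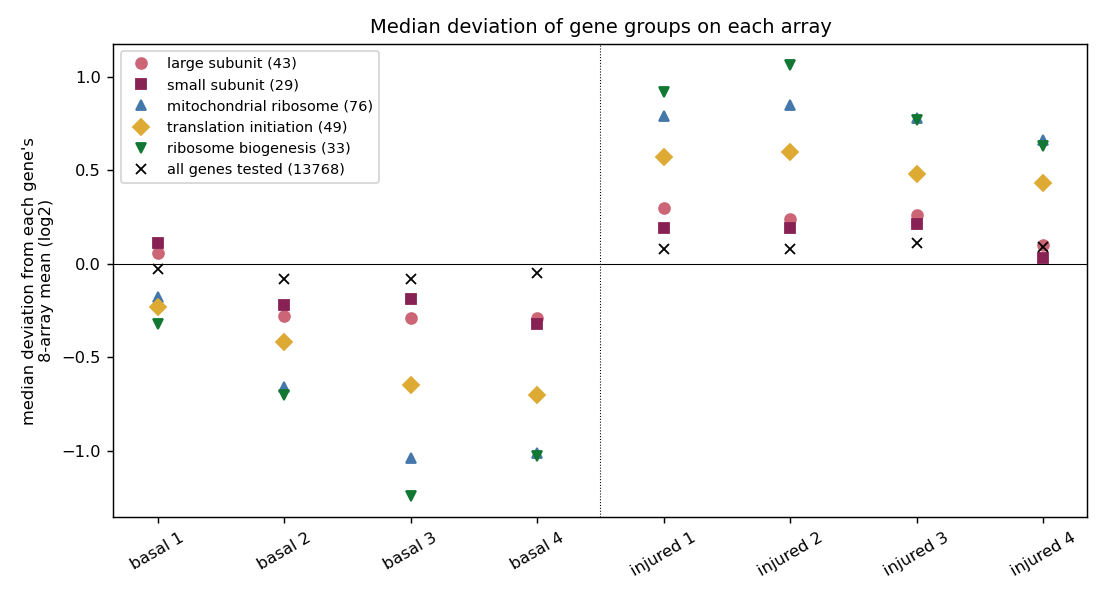
Median deviation of gene groups from each gene's mean over the 8 arrays (vertical axis, log2) on each basal and injured array; each symbol is the median of 1 gene group on 1 array, with the number of genes in the key. The ribosomal subunits span 0.03 to 0.30 on injured arrays and stand at 0.06 and 0.11 on basal 1, while ribosome biogenesis genes span a wider range, from -1.24 on basal 3 to 1.06 on injured 2.

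The array also holds paralogs, related copies of ribosomal protein genes, some of which can replace the parent protein in the ribosome. Of 8 paralog names, Rpl3l, the muscle form of Rpl3, and Rpl39l, known from testis, were not well above background in enough arrays to be tested. Among the 6 tested, Rps27l and Rpl36al were higher. The change of the paralog relative to its parent was tested within arrays for these 6 pairs with an exact two-sided permutation test, whose smallest possible p with 4 against 4 arrays is 0.0286. The longest run of bases that a paralog's probe shared with any probe of its parent was 8 of 60.

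Rps27l is known as a p53 target. It stood at 3.13, 2.32, 1.77 and 1.64 on basal and at 3.90, 3.93, 3.97 and 3.70 on injured arrays. The injured arrays were above all basal ones, and basal 1 lay nearest to them. It rose by 1.66 ± 0.31 (adjusted p = 0.00174), a fold of 3.16. Its parent Rps27 stood at 6.53, 6.17, 6.01 and 5.75 on basal and at 5.95, 5.81, 6.19 and 5.84 on injured arrays, and the groups overlapped. The other 3 Rps27 probes gave -0.39 to -0.21. Relative to Rps27, Rps27l was shifted by 1.83 on the log2 scale (exact permutation p = 0.0286; 0.0857 adjusted over 6 pairs), and the shift was 1.68 to 2.32 under the alternatives.

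Rpl36al stood at 3.92, 3.16, 2.89 and 2.82 on basal and at 4.53, 4.55, 4.55 and 4.46 on injured arrays. The injured arrays lay close together, above a spread of basal values whose highest was basal 1. It rose by 1.32 ± 0.23 (adjusted p = 0.00144). Its parent Rpl36a stood at 5.51, 5.25, 5.35 and 5.25 on basal and at 5.85, 5.84, 5.81 and 5.57 on injured arrays and rose by 0.43 ± 0.12 (adjusted p = 0.0165). The shift of Rpl36al against Rpl36a was 0.89 (exact permutation p = 0.0286; 0.0857 adjusted). Neither shift passed 0.05 after adjustment over the pairs.

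The other pairs gave smaller or less certain shifts. Rpl22l1, the paralog that is known to trade places with Rpl22, had a difference of 0.25 ± 0.21 and Rpl22 rose by 0.59, a shift of -0.34 (exact permutation p = 0.0857; 0.171 adjusted). With all probes of Rpl22 averaged the shift was 0.89, in the opposite direction, as its probes disagreed. Over the alternatives this shift ran from -0.45 to 0.91, so averaging was not the only setting that turned its sign. Rpl7l1 against Rpl7 (0.32 and 0.38) was shifted by -0.06 (exact permutation p = 0.743). Rpl10l against Rpl10 was shifted by 0.47 (exact permutation p = 0.286; 0.429 adjusted). Rps4y2, now called Rps4l, was shifted by 1.11 against Rps4x (exact permutation p = 0.429; 0.514 adjusted), and its basal values ranged from -4.89 on basal 2 to -0.10 on basal 1.

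**Figure D3:**
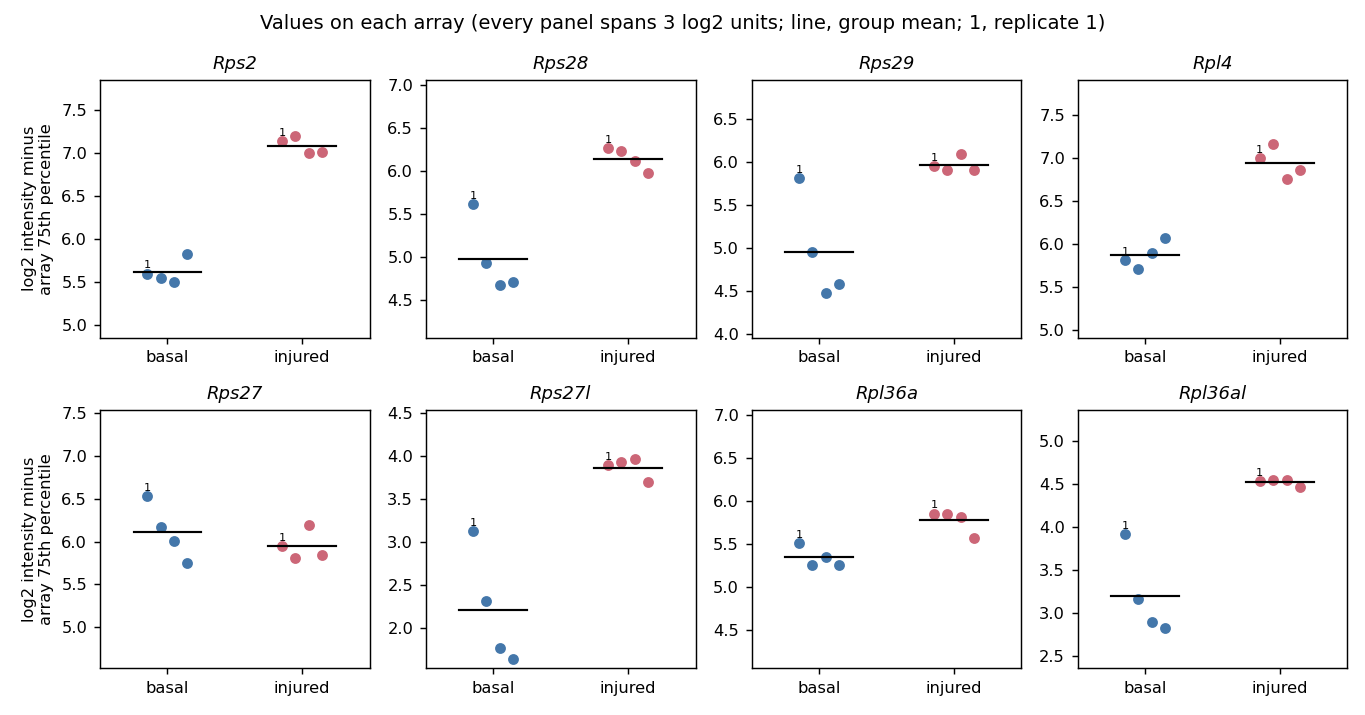
Values of 8 genes on each array (vertical axis, log2 intensity minus the array's 75th percentile; every panel spans the same number of log2 units), with basal arrays in blue, injured arrays in red, a line at each group mean and the numeral 1 beside replicate 1. The injured arrays lie above every basal array for the genes shown other than Rps27, and basal 1 is the highest basal array for those other than Rps2 and Rpl4.

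Of 15 pseudogene names, 7 (46.7%) were higher and 1 was lower, where 35.3% of all genes tested were higher and 24.8% lower. Rpl10a-ps2 rose by 0.84, Rps6-ps2 by 0.74, and Rpl17-ps1 fell by 0.61 on the log2 scale (adjusted p = 0.0069). Rpl17-ps1 shared a run of 30 bases with the 1 Rpl17 probe that was called lower, at -0.79, and Rpl12-ps1 a run of 24 bases with an Rpl12 probe. No other pair of probes with different names shared 20 bases or more. Rps19bp1 rose by 0.83 ± 0.12 (adjusted p = 4.6e-04).

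Probes of 1 gene did not always give 1 answer. Over all probes, 168 core probes were tested, of which 92 were higher, 4 lower and 72 not called, where 31.7% of all probes were higher and 56.9% were called in either direction. Of 52 core genes with at least 2 probes tested, all probes were higher for 17, some were higher and others not called for 18, and none was called for 13. For the remaining 4, Rpl22, Rps3, Rpl17 and Rps6, probes were called in opposite directions. The range between the probes of a gene had a median of 0.38 and was at least 1 for 12 genes.

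For Rpl22 the brighter probe rose by 0.59 ± 0.20. The other stood at 2.29, 2.69, 3.03 and 3.00 on basal and at 0.72, 0.94, 0.80 and 1.12 on injured arrays, without overlap, and fell by 1.86 on the log2 scale (adjusted p = 1.1e-04). The array places both on chromosome 4, at chr4:151706515-151706574 and chr4:151708012-151708071 (mm9), the second being the one that fell. For Rps3, 2 probes rose by 0.93 and 1.06. The third stood at 6.56, 6.67, 6.65 and 6.53 on basal and at 5.91, 5.85, 5.73 and 5.92 on injured arrays and fell by 0.75 on the log2 scale (adjusted p = 6.2e-04). Both groups were tight for that probe, so its fall was larger than the spread between replicates. For Rps6 the probes gave 0.36, 0.28 and -0.43. The Rpl17 probes ran from -0.79 to 0.91 over 7 probes.

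Further genes had probes that differed in size, or in sign without opposite calls. A second probe of Rpl13a stood at 3.53, 3.12, 3.12 and 3.50 on basal and at 5.88, 6.02, 5.66 and 5.50 on injured arrays and rose by 2.45 ± 0.17 (adjusted p = 1.8e-05), the largest rise of any core probe. The brighter Rpl13a probe, used for the gene, rose by 0.34. The Rpl31 probes gave 0.04 to 1.08. For Rpl28 the second probe rose by 0.73 ± 0.11, against -0.51 for the brighter one, so the lowest value of any core gene rests on which probe is used.

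**Figure D4:**
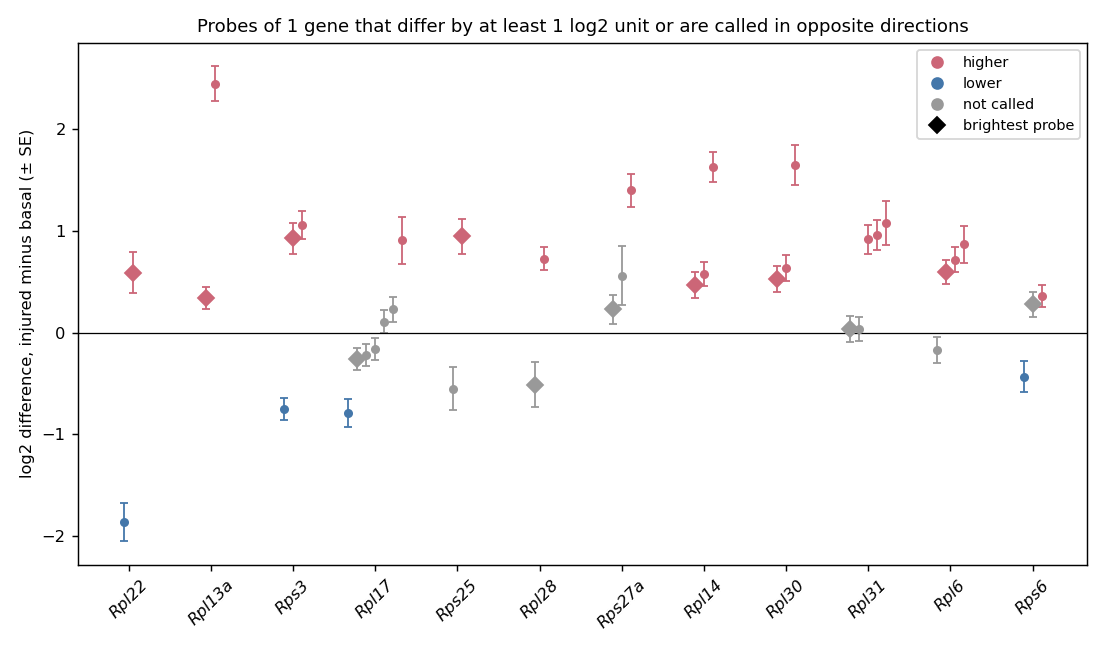
Log2 difference between the injured and basal group with moderated standard errors (vertical axis) for every tested probe of 12 of the 13 genes whose probes differed by at least 1 or were called in opposite directions, with red for higher, blue for lower, grey for not called and a diamond for the probe that stands for the gene. Rpl22, Rps3, Rpl17 and Rps6 have both red and blue points, and the second Rpl13a probe is the highest point at 2.45.

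Ribosomal proteins with other names gave values within the range of the core genes. Rpsa, the laminin receptor protein of the small subunit, rose by 0.63 ± 0.11 (adjusted p = 0.00129), and Fau, a ubiquitin-like fusion that yields a small subunit protein, by 0.47 ± 0.13 (adjusted p = 0.0142). Rack1, a scaffold on the small subunit, had a difference of 0.26 ± 0.11 and was not called.

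The core genes are set here beside lists of other genes of the translation apparatus, as counts and medians with no test between the lists. Of all genes tested, 35.3% were higher and 24.8% lower. Of 76 mitochondrial ribosomal protein genes tested, 70 were higher and 1 lower (Mrps10, -0.70), with a median of 1.57, and 42 of them exceeded Rps2, the highest core gene. Mrpl18 and Mrpl11 rose by 3.71 and 2.90. Of 33 ribosome biogenesis genes, 29 were higher and none lower, with a median of 1.69. Among them were Nhp2 of the RNA-modifying particles at 2.49, and Npm1, the nucleolar chaperone, at 2.47. The core median was below the mitochondrial ribosome median under all 21 alternatives as well as the main setting.

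Of 15 genes for import and chaperoning of ribosomal proteins, 13 were higher and 1 lower, with a median of 0.85. Rpf2 and Rrs1, which bring the 5S particle of Rpl5 and Rpl11 into the growing subunit, rose by 2.62 and 2.08, and Nap1l1, a histone chaperone, by 2.12. Heatr3, an importer of Rpl5, fell by 0.38 on the log2 scale. Of 49 initiation genes, 35 were higher and 5 lower, with a median of 1.04. Eif6, which keeps the large subunit from joining early, rose by 2.72, Eif5a by 2.22 and Eif3b by 2.18. Eif4a2, a helicase paralog, fell by 1.22, and Eif2s3y, a Y-linked gene, by 2.26 on the log2 scale, beside the Xist values above. Of 15 elongation and release genes, 11 were higher and none lower, with a median of 1.22, and the release factor Etf1 rose by 1.94. This list was taken mainly by the name Eef and a digit. It therefore also holds genes that are not elongation or release factors, such as Eef1akmt1, Eef1akmt2 and Eef1akmt4, at 1.53, 0.33 and 1.74.

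Other messages known to carry a 5′ TOP motif were closer in size to the ribosomal proteins. Of 23 such genes tested, some of them also in the lists above, 14 were higher and none lower, with a median of 0.63. Eef1a1 and Eef2, the main elongation factors, had differences of 0.03 and 0.16 and Tpt1 of -0.15, and none of these was called. Vim, an intermediate filament protein, rose by 2.51 and Npm1 by 2.47. Of 20 regulators of ribosomal protein genes and messages, 9 were higher and 2 lower, with a median of 0.25. Eif4ebp1, a brake on translation under mTOR, rose by 1.48. Mdm2, which Rpl5 and Rpl11 bind, rose by 1.36 and its target Trp53 by 1.34. Larp1 rose by 1.28 ± 0.15 and Rptor, a subunit of the mTOR complex, by 1.33 ± 0.13. The kinase genes Rps6kb2 and Rps6ka3 fell by 1.06 and 0.66 on the log2 scale.

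**Figure D5:**
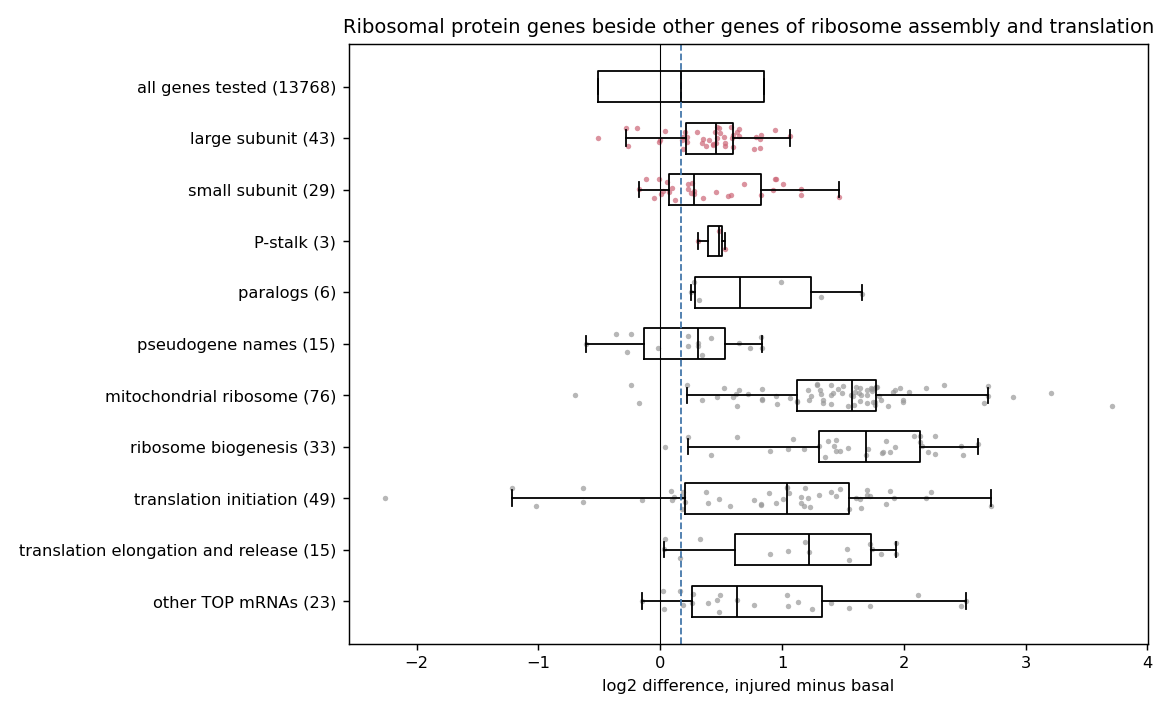
Log2 difference between the injured and basal group (horizontal axis) for the genes of each group, with 1 point per gene, a box for the middle of the values and a line at the median; the top box gives all genes tested without points or whiskers, and numbers in brackets count genes. The large and small subunit medians, 0.46 and 0.28, lie left of those of the mitochondrial ribosome, 1.57, and of ribosome biogenesis, 1.69.

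Start sites were compared because the 5′ TOP motif is the feature that ribosomal protein messages share. RefSeq promoter windows (GRCm38.p6) were present for 55 of the 75 core genes, and the 15 bases before and the 15 after the annotated start were searched for a C followed by at least 4 bases that are each C or T. The longest such run is in capitals. RefSeq has a second Rps27l start, with no run, which is not shown.
Rps2 start, + strand, chr17:24720048-24720077: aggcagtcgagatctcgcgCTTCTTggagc
Rpl4 start, + strand, chr9:64173372-64173401: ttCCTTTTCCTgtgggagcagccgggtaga
Rps28 start, - strand, chr17:33824548-33824577: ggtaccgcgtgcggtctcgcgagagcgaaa
Rpl28 start, + strand, chr7:4792950-4792979: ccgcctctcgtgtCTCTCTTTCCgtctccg
Rps27 start, - strand, chr3:90213634-90213663: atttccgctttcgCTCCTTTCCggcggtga
Rps27l start, + strand, chr9:66946071-66946100: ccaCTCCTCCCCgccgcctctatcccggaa
Rpl36a start, + strand, chrX:134585639-134585668: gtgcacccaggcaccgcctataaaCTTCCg
Rpl36al start, - strand, chr12:69184053-69184082: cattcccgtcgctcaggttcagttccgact
A run was present on the gene's strand in 36 of 55 core genes (65.5%) and in 40.3% of 27025 symbols with a promoter. On the other strand the shares were 32.7% and 44.6%. Among mitochondrial ribosomal protein genes, 33 of 69 (47.8%) had a run. Within the core genes the share was 66.7% (18 of 27) for those that were higher and 64.3% (18 of 28) for those not called. Rpl28, with the lowest difference, had a run of 10 bases, Rpl4 and Rps27 had runs of 9, and Rps28 had none in this window. A run is a match of letters near an annotated start, and annotated starts can lie some bases away from the cap.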

How the data were processed

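RNA of sorted satellite cells, labelled with Cy3, was measured on 8 one-colour arrays. The deposited scanner files hold intensity values that came, per the file headers, from version 10.7.3.1 of Agilent Feature Extraction, which subtracts background and detrends each array. The authors' deposited table holds log2 values whose 8 columns share a median of 8.02; the labels name limma without a version, and its steps were not stated. Its columns had rank correlations of 0.454 to 0.92 with the scanner values of the same arrays, the cause of which was not tested, so the table served as an alternative only.

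Processed intensity was put on the log2 scale and centred on each array's 75th percentile. Control spots and 1119 outlier spot values were left out, and spots of a probe were averaged. Members were named by the array's gene name, and the brightest probe stood for a gene. Rps3a is the array's name for Rps3a1. A gene was tested where its probe passed the software's background mark on at least 3 arrays of a group. The groups were set against each other in limma 3.58.1 (R 4.3.3), with moderated variances, 2.55 prior degrees of freedom, Benjamini-Hochberg adjustment over 13768 genes and a threshold of 0.05; errors are moderated standard errors, n = 4 per group. Probe tests were adjusted over 31313 probes. The fit was tested on simulated data. The labels do not say that replicates came from separate mice, so p-values measure the spread between these samples. Paralog shifts used exact permutation.

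The members, gene lists and named-gene rule were chosen with earlier results of these data known. Named were the 5 largest risers and fallers called in each subunit, each core gene not called, paralogs with parents, genes whose probes disagreed, pseudogene examples, other-named ribosomal proteins, and up to 3 called genes per list (2 in the other direction). Larp1, Rptor, Eef1a1, Eef2, Tpt1 and the remaining risers were named after their values were seen. Some genes are counted but not reported here by name. Probe positions are mm9, as the array files give them; promoter sequences are from RefSeq.

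The 21 alternatives were quantile normalization, normexp correction (offset 50) with quantile or percentile scaling, scaling to the median of bright probes, the authors' table, both filters on dim probes, the mean of a gene's probes, trend and robust variances, array weights, a replicate block, each array left out, and 2 sets of arrays left out.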

Additional observations from a re-analysis of the deposited data

Results flagged for a closer look

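An array far from the other 3 of its group was seen for 11 of 164 gene and group combinations, by the ratio of its gap to the group's whole range, where chance gives about 1 in 20. In 6 of the 11, basal 1 was above the other basal arrays: Rpl12 at 7.38 (others 6.89 to 6.94), Rpl26 at 6.13 (5.67 to 5.74), Rpl37 at 7.40 (6.52 to 6.65), Rpl27a at 6.29 (5.75 to 5.79), Rps18 at 7.04 (6.78 to 6.81) and Rps20 at 7.21 (6.81 to 6.86). In 4, injured 4 was below the other injured arrays: Rpl9 at 6.25 (others 6.46 to 6.50), Rpl36a at 5.57 (5.81 to 5.85), Rps14 at 6.59 (6.76 to 6.78) and Rps26 at 6.12 (6.32 to 6.36). In the last, injured 3 was above the others for Rpl28, at 5.71 (5.33 to 5.38). Both arrays that recur are those whose core median stands apart from their group.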

How the results depend on the processing

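Of the 39 core genes that rose, 20 were lost in at most 2 of 21 alternatives; Rps2 was the highest core gene in 20 of 22 settings, the main one included. The count of higher core genes depended on scaling: 22 with quantile normalization (10 large, 0 P-stalk; 54 probes), 2 in the authors' deposited table (0 large, 2 small, 0 P-stalk; 11 probes), and 14 large subunit genes with normexp and quantile normalization. Lower core genes numbered 6 with quantile normalization (4 large, 2 small; 21 probes), 12 with normexp and quantile normalization (6 and 6; 28 probes), 2 with median scaling (2 large; 11 probes) and 1 with normexp and the 75th percentile (8 probes), trend and robust variances (8 probes), the mean of all probes (Rpl22), without basal 1 or without basal 1 and 2. In the authors' table no core probe was lower. Across all genes that table gave 774 lower genes, 5583 higher and 1537 lower probes.

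Without injured 2, 3 and 4 the remaining injured array is assumed to vary like the basal ones; 1 core gene was higher (1 small, 0 large, 0 P-stalk; 5 probes higher, 1 lower), with 767 higher and 1006 lower genes and 1312 higher and 2114 lower probes in all. Leaving out each array in turn gave 29 to 51 higher core genes and 0 to 1 lower, 15 to 31 in the large subunit (15 without injured 1), and 12 to 17 in the small subunit. The core median was 0.20 with quantile normalization and 0.19 with normexp and quantile normalization (large 0.20 and 0.18). The small subunit median was 0.12 with the latter, 0.45 in the authors' table and 0.44 without basal 1 and 2. The all-gene median moved from 0.17 to 0.06 with normexp and quantile normalization and to 0.47 in the authors' table; the core median minus the all-gene median was 0.26 as reported, 0.07 with quantile normalization, 0.13 with normexp added and -0.09 in the authors' table.

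The shift of Rpl7l1 against Rpl7 was 0.15 and that of Rpl36al against Rpl36a 1.19 without basal 1 and 2. In the authors' table the shifts of Rpl7l1, Rpl10l and Rps4y2 were 1.46, -0.46 and -1.30, of opposite sign to those reported and none past 0.05. Rpl22l1 against Rpl22 was -0.38 and -0.45 with normexp and quantile or percentile scaling, past an unadjusted 0.05, and 0.89 with the mean of probes. The highest shift of this pair over the alternatives was 0.91, in a setting other than the mean of probes. Not called as reported but called lower, with the sign turned or from near 0, were Rpl9 (-0.34), Rpl31 (-0.22), Rps14 (-0.23) and Rps15a (-0.27) with normexp and quantile normalization. Rpl22, higher as reported, was at -0.49 in the authors' table and at -0.64, called lower, with the mean of probes. The cause was not tested, save that the mean of probes includes the falling Rpl22 probe. Arrays of equal replicate number deviated together no more (r of 0.00 to 0.09) than arrays of unequal number (r of -0.09 to 0.10). No pairing was seen, though 4 arrays a group cannot exclude one. With the replicate block 35 core genes were higher. A slide block could not be fitted, since each slide holds 1 group. Probes near background limit Rpl21 and Rps4y2.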
